A study of Homo sapiens with 10 samples.

Results

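The 10 genes AARS, CARS, EPRS, GARS, IARS, LARS, MARS, NARS, SARS and WARS encode cytosolic aminoacyl-tRNA synthetases. They were taken as every probe whose gene name on the array was one of these symbols (the current symbols add the digit 1, as in AARS1), which gave 12 probes for 10 of the 19718 genes kept. All 12 probes were well above background on all 10 arrays, so that no member was lost to the filter on dim probes. The mRNA came from PC-3, a line of human prostate cancer cells. The study asked how mRNA levels change when these cells are exposed to gefitinib, an inhibitor of the epidermal growth factor receptor kinase, and to luteolin, a plant flavonoid. The 5 groups of 2 arrays were cells taken before any reagent was added (0 h), and cells kept for 24 h with the solvent DMSO, with 60 µM luteolin, with 60 µM gefitinib, or with both drugs at these concentrations. Both drugs had been dissolved in DMSO, and DMSO is the matched control of each drug-treated group. The sample labels call the arrays of a group biological replicates and the series text says that samples were run in duplicate, so p-values measure the spread between these arrays, which may be in part technical.

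The sample labels and the names of the scanner files disagree for the 6 drug-treated arrays. Arrays labelled luteolin came in files named for gefitinib, those labelled gefitinib in files named for the combination, and those labelled luteolin plus gefitinib in files named for luteolin. Which of them is right was not settled here. Groups are therefore called by their sample label throughout (luteolin-labelled, gefitinib-labelled and co-administration-labelled arrays), and the reading by file name is given after the comparisons.

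An aminoacyl-tRNA synthetase joins an amino acid to its tRNA, the step that supplies the ribosome with charged tRNA. In human cells some of these enzymes, among them EPRS, IARS, LARS and MARS, sit together in the multisynthetase complex, and others such as AARS, CARS, GARS, NARS, SARS and WARS act outside it. Many synthetase genes are known targets of the transcription factor ATF4, whose translation rises when amino acids run short or when unfolded protein collects in the endoplasmic reticulum. ATF4 acts at short elements that it binds with C/EBP proteins, and genes of amino acid synthesis and uptake carry them as well.

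Promoter windows of 250 bases before to 50 bases after the gene's start were taken from RefSeq (build GRCh38.p14) and searched on both strands for the core of such an element, TGATGNAA. Of the 10 genes, 9 had a window, and LARS had none. The motif was found in 6 of these 9 genes, namely AARS, CARS, GARS, IARS, MARS and NARS, where 4.46% of the 27305 genes with a window held it. The stricter core TGATGCAA, each match of which is also a match of TGATGNAA, was found in 5 of them, all but GARS, against 1.08% of all genes. Over windows rather than genes, 6 of 13 held the motif, against 3.62% of all 35116 windows. The stretches of 30 bases around the matches are shown because they set members with and without the motif apart. They are written in the direction of the gene, and the match is in capitals, on the opposite strand in each gene but NARS.
AARS: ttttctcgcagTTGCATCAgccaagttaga
CARS: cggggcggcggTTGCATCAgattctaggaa
GARS: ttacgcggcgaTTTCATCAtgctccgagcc
IARS: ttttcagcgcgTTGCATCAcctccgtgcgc
MARS: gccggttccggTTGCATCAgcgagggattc
NARS: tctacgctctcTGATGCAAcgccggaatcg
On GRCh38.p14 these stretches lie at chr16:70289675-70289704 (minus strand) for AARS, chr11:3057407-3057436 (minus) for CARS, chr7:30594834-30594863 (plus) for GARS, chr9:92293692-92293721 (minus) for IARS, chr12:57488053-57488082 (plus) for MARS and chr18:57621804-57621833 (minus) for NARS. The match began 187 bases before the start in AARS and 33 bases before it in GARS. In the others it lay at the start itself, beginning 13 bases before it in IARS, 4 before it in MARS, 2 before it in CARS and 14 after it in NARS. No match was found in the windows of EPRS, SARS and WARS, which says only that these letters are not in these windows. Among 7 of the other 10 cytosolic synthetases with a window, TARS alone held the motif, and among 14 of 16 mitochondrial synthetases YARS2 alone did. Of the other lists described further on, the motif was in 3 of 11 genes of the amino acid stress response (ASNS, CEBPG and CHAC1), 2 of 5 interferon response genes (GBP1 and MX1), 0 of 4 elongation factors and 0 of 3 scaffold proteins with a window.

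**Figure D1:**
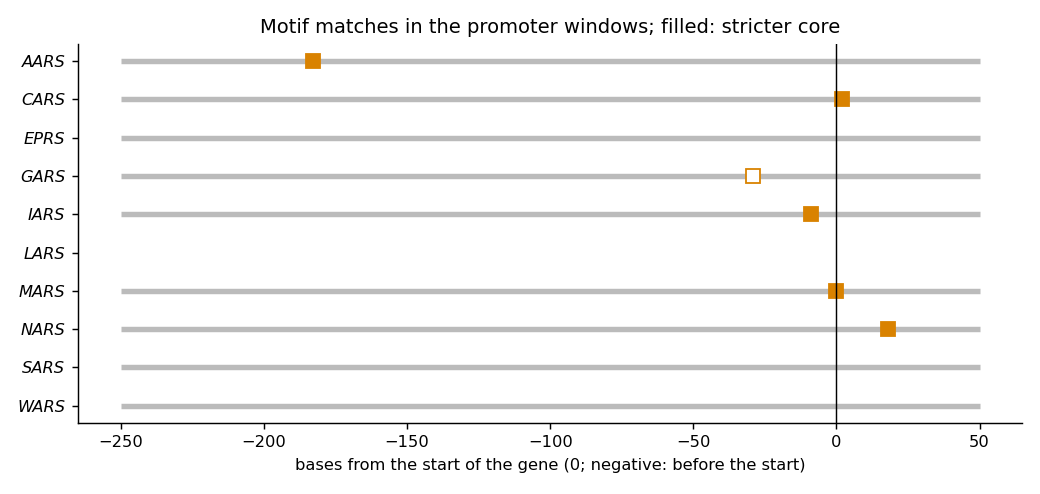
Position of the TGATGNAA match in the promoter windows of the 10 genes. Grey bars are the windows from 250 bases before to 50 bases after the start (vertical line, 0), squares are matches on either strand, filled where the stricter core TGATGCAA matched, and LARS has no bar because it had no window; 4 of the 6 matches lie within 14 bases of the start.

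The level of a gene is the log2 of its processed signal minus that of the signal at the array's 75th percentile, so that a level of 0 means a signal equal to that percentile. Levels of different genes come from different probes and are not compared. The 75th percentile itself ranged from 539.8 to 1402 signal units and was lowest on the gefitinib-labelled and co-administration-labelled arrays, with 539.8 to 864.6 on these 4 arrays against 1283 and 1350 with DMSO. The share of probes well above background ran from 63.4% to 70.4% over the arrays. The epithelial markers KRT8, KRT18, EPCAM and CDH1 were well above background on all 10 arrays. Of the 3 probes of KLK3, the gene of prostate-specific antigen, 1 was well above background on 10 arrays and the other 2 on 0. The endothelial marker PECAM1 and the fibroblast marker COL1A1 were dim but above background, on 10 and 9 arrays. The leukocyte marker PTPRC was above background on 0. Of the 3 probes of KLK2, a marker of androgen-responsive luminal cells, 1 was well above background on 9 arrays and the other 2 on 0. Groups were compared with limma, a linear model that shares the spread between genes, on all 10 arrays, with Benjamini-Hochberg adjustment over all probes kept. The threshold for calling a gene raised or lowered was an adjusted p under 0.05, with no minimum fold. Errors are standard errors of the log2 change, with 2 arrays in each group.

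Against DMSO, 7 of the 10 genes were raised on the luteolin-labelled arrays (AARS, CARS, EPRS, GARS, IARS, SARS and WARS) and none was lowered. Over all genes, 14.3% were raised and 11.8% lowered in this comparison. AARS, CARS, GARS and SARS, 4 of the 7, rose at least 2-fold, as did 7.22% of all genes. The median log2 change was 0.80 over the 10 genes and 0.08 over all genes. On the gefitinib-labelled arrays 3 genes were raised (LARS, NARS and WARS) and 0 lowered, where 32.9% of all genes were raised and 22.1% lowered, and the median was 0.28 against 0.22 over all genes. Before scaling, the signals of these 3 genes were lower there than with DMSO. They were 3766 and 4802 against 5508 and 5607 for LARS, and 8477 and 7511 against 11590 and 9888 for NARS. For WARS they were 3076 and 2588 against 3682 and 3225. Their rise is thus one relative to the array's 75th percentile, which was also lower. On the co-administration-labelled arrays CARS and GARS were raised and AARS was lowered, where 25.1% of all genes were raised and 16.2% lowered, and the median was 0.20 against 0.16. CARS alone rose at least 2-fold there, as did 12.1% of all genes. The share of members raised was thus well over the background with the luteolin label and near or under it with the other labels. The 3 comparisons share the DMSO arrays. Since whole cultures were measured, a change in the RNA of each cell and a change in which cells survive cannot be told apart.

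**Figure D2:**
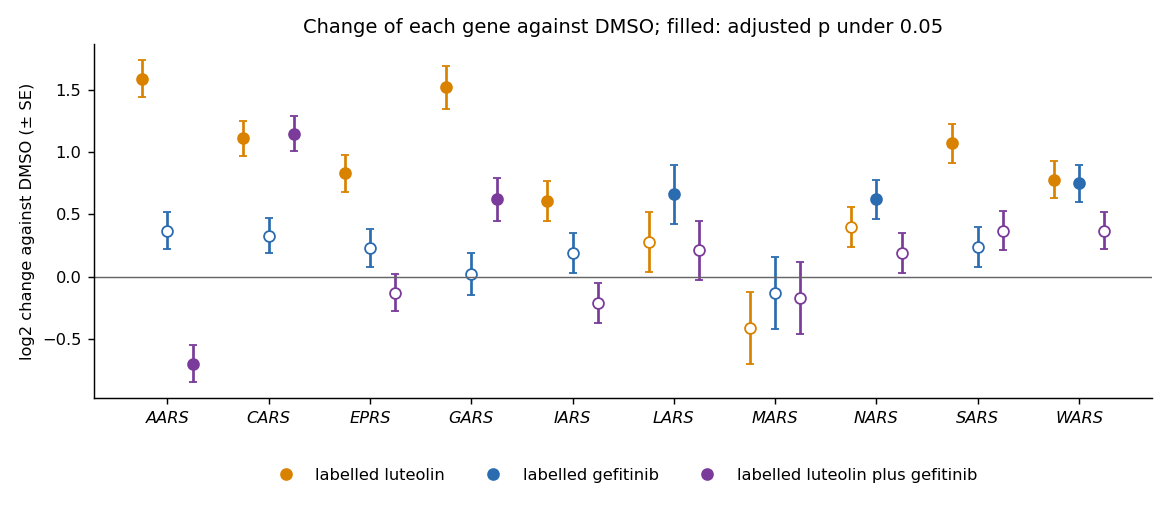
Log2 change of each gene against DMSO (vertical axis) with its standard error, for the luteolin-labelled, gefitinib-labelled and co-administration-labelled arrays, 2 arrays in each group. Filled points have an adjusted p under 0.05; 7 luteolin-labelled points are filled, all above 0, while AARS lies at 1.59 for luteolin and -0.70 for co-administration. By the file names the same points stand for gefitinib, the combination and luteolin.

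The median of all genes lay 0.22 above DMSO with the gefitinib label and 0.16 with the co-administration label, so changes of the members there were also taken relative to that shift. LARS then stood at 0.44, NARS at 0.40 and WARS at 0.54 with gefitinib, and with co-administration CARS stood at 0.99, GARS at 0.45 and AARS at -0.86. Quantile normalization, which forces all arrays to the same distribution, ended the gefitinib-labelled calls of LARS (0.34, adjusted p = 0.217) and NARS (0.13, adjusted p = 0.574), and WARS remained raised. Relative to its own shift, LARS, NARS and WARS stood at 0.29, 0.08 and 0.47, and with co-administration CARS, GARS and AARS at 1.13, 0.55 and -0.74. With another background correction (normexp) these values were 0.24, 0.12 and 0.33, and 0.75, 0.25 and -0.94, in the same order. The calls rest on 2 DMSO arrays. Without DMSO replicate 1, and also without replicate 2, the count raised on the luteolin-labelled arrays was 4 in place of 7, since EPRS, IARS and WARS then missed the threshold. Their changes stayed at 0.82 to 0.84 for EPRS, 0.58 to 0.64 for IARS and 0.72 to 0.84 for WARS.

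Among the enzymes that act outside the complex, AARS, which charges the alanine tRNA, moved furthest. Its probe lies at chr16:68845377-68845436 of hg18. The AARS level was 0.51 and 0.62 at 0 h, 0.28 and 0.21 with DMSO, 1.81 and 1.86 on the luteolin-labelled arrays, 0.67 and 0.55 on the gefitinib-labelled arrays and -0.54 and -0.36 on the co-administration-labelled arrays. The luteolin-labelled arrays were the highest and the co-administration-labelled arrays the lowest, with no overlap between either and any other group. Against DMSO, AARS rose by 1.59 ± 0.15, or 3.01-fold, with the luteolin label (adjusted p = 0.000601). It fell by 0.70 ± 0.15, to 0.617 of the DMSO level, with the co-administration label (adjusted p = 0.00916), a call that was lost without DMSO replicate 1 (adjusted p = 0.0708) or replicate 2 (adjusted p = 0.0573). The gefitinib-labelled change of 0.37 ± 0.15 was not called (adjusted p = 0.0671), and those arrays lay 0.04 ± 0.15 from 0 h (adjusted p = 0.819), so that the middle of the order, gefitinib label, 0 h and DMSO, was not resolved by the calls.

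GARS makes glycyl-tRNA and is needed in the cytosol and, from the same gene, in mitochondria. Its probe lies at chr7:30632416-30634715 of hg18. The GARS level was 1.10 and 0.90 at 0 h, 0.90 and 0.67 with DMSO, 2.23 and 2.38 with the luteolin label, 0.84 and 0.76 with the gefitinib label and 1.49 and 1.31 with the co-administration label. Luteolin-labelled arrays stood clear of all others, co-administration-labelled arrays came next, and all arrays of the other 3 groups lay between 0.67 and 1.10. The rise against DMSO was 1.52 ± 0.17 with the luteolin label, or 2.87-fold (adjusted p = 0.00097), and 0.62 ± 0.17, or 1.53-fold, with the co-administration label (adjusted p = 0.0207). The latter was not called without DMSO replicate 1 (adjusted p = 0.0619), without replicate 2 (adjusted p = 0.148) or with only the groups compared in the fit (adjusted p = 0.0678). With the gefitinib label the change was 0.02 ± 0.17 (adjusted p = 0.943).

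CARS, the cysteinyl-tRNA synthetase, was raised under both the luteolin and the co-administration label. Its probe lies at chr11:2995059-2995679 of hg18. Levels of CARS were -1.05 and -1.14 at 0 h, -1.14 and -1.12 with DMSO, -0.09 and 0.06 with the luteolin label, -0.76 and -0.84 with the gefitinib label and 0 and 0.04 with the co-administration label. Luteolin-labelled and co-administration-labelled arrays overlapped and lay above all others, and 0 h and DMSO overlapped at the bottom. Against DMSO the rise was 1.11 ± 0.14, or 2.16-fold (adjusted p = 0.00162), and 1.15 ± 0.14, or 2.22-fold (adjusted p = 0.00146), in this order. Their difference was 0.04 ± 0.14 (adjusted p = 0.845), which does not show that they were equal. The gefitinib-labelled change of 0.33 ± 0.14 was not called (adjusted p = 0.0845).

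SARS charges serine and, for selenoprotein synthesis, the selenocysteine tRNA. Its probe lies at chr1:109581516-109581932 of hg18. SARS stood at 2.40 and 2.42 at 0 h, 2.34 and 2.26 with DMSO, 3.40 and 3.35 with the luteolin label, 2.69 and 2.38 with the gefitinib label and 2.77 and 2.57 with the co-administration label. The luteolin-labelled arrays lay above every other array. The DMSO arrays were the lowest, with 2.34 on the higher of them against 2.38 on the lower gefitinib-labelled array. The rise with the luteolin label was 1.07 ± 0.16, or 2.10-fold (adjusted p = 0.00312), and the changes with the gefitinib label (0.24 ± 0.16, adjusted p = 0.251) and the co-administration label (0.37 ± 0.16, adjusted p = 0.105) were not called.

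WARS charges tryptophan and is also known as a gene that interferon gamma induces. Its probe lies at chr14:99870794-99870853 of hg18. Levels of WARS were 1.61 and 1.52 at 0 h, 1.45 and 1.33 with DMSO, 2.12 and 2.21 with the luteolin label, 2.24 and 2.04 with the gefitinib label and 1.70 and 1.82 with the co-administration label. It was the member raised under both single labels, by 0.78 ± 0.15 (1.71-fold, adjusted p = 0.00871) and 0.75 ± 0.15 (1.69-fold, adjusted p = 0.00488). Those 4 arrays overlapped and lay above all others. Without luteolin replicate 2 the luteolin-labelled call was lost (adjusted p = 0.0666). The co-administration-labelled change was 0.37 ± 0.15 (adjusted p = 0.0854). Of 7 interferon response genes (GBP1, GBP2, IDO1, IFIT1, IRF1, ISG15 and MX1), 0 were raised and 4 lowered with the luteolin label, 3 raised and 1 lowered with the gefitinib label, and 1 raised and 0 lowered with the co-administration label. The shares of all genes raised and lowered were 14.3% and 11.8%, 32.9% and 22.1%, and 25.1% and 16.2%, in this order of labels. The part of the interferon response in the values of WARS was not tested.

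NARS, the asparaginyl-tRNA synthetase, has its probe at chr18:53419188-53419247 of hg18. Its level was 3.21 and 3.09 at 0 h, 3.1 and 2.95 with DMSO, 3.47 and 3.39 with the luteolin label, 3.70 and 3.58 with the gefitinib label and 3.34 and 3.08 with the co-administration label. The gefitinib-labelled arrays were the highest and DMSO, 0 h and co-administration overlapped. NARS rose by 0.62 ± 0.16 with the gefitinib label, or 1.53-fold (adjusted p = 0.013), the call that quantile normalization ended and that was also lost without DMSO replicate 2 (adjusted p = 0.0985) or gefitinib replicate 1 (adjusted p = 0.0598). The luteolin-labelled change was 0.40 ± 0.16 (adjusted p = 0.105).

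Within the multisynthetase complex, EPRS, which charges glutamate and proline from a single chain, and IARS, which charges isoleucine, were raised with the luteolin label and not called with the co-administration label. The probe of EPRS lies at chr1:218209027-218209086 and that of IARS at chr9:94012692-94012751 of hg18. EPRS levels were 4.22 and 4.23 at 0 h, 4.10 and 4.08 with DMSO, 4.99 and 4.85 with the luteolin label, 4.43 and 4.22 with the gefitinib label and 3.99 and 3.94 with the co-administration label. IARS levels were 3.08 and 3.03 at 0 h, 2.71 and 2.77 with DMSO, 3.31 and 3.39 with the luteolin label, 3.04 and 2.82 with the gefitinib label and 2.42 and 2.64 with the co-administration label. For both genes the luteolin-labelled arrays were the highest and the co-administration-labelled arrays the lowest of all. EPRS rose by 0.83 ± 0.15 with the luteolin label, or 1.78-fold (adjusted p = 0.00604), and IARS by 0.61 ± 0.16, or 1.53-fold (adjusted p = 0.0244). The call for IARS was lost without any of the DMSO and luteolin-labelled arrays in turn (adjusted p = 0.0711 to 0.147) and with no filter on dim probes (adjusted p = 0.0539). With the co-administration label the changes were -0.13 ± 0.15 for EPRS (adjusted p = 0.518) and -0.21 ± 0.16 for IARS (adjusted p = 0.31).

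LARS, the leucyl-tRNA synthetase, also serves as a leucine sensor upstream of the growth kinase mTORC1, and it was raised with the gefitinib label and not called with the luteolin label. It had 2 probes, and the brighter one, at chr5:145527945-145528004 of hg18, was taken to stand for the gene. That probe read 2.23 and 2.44 at 0 h, 2.03 and 2.13 with DMSO, 2.19 and 2.53 with the luteolin label, 2.53 and 2.93 with the gefitinib label and 2.02 and 2.57 with the co-administration label. The gefitinib-labelled arrays tended to be high, but luteolin-labelled and co-administration-labelled arrays reached the lower of them. Its gefitinib-labelled rise was 0.66 ± 0.24 (1.58-fold, adjusted p = 0.0448), and the second probe, at chr5:145474059-145480177, gave 0.58 ± 0.17 (adjusted p = 0.0226). For the brighter probe the call was lost without either array at 0 h, with DMSO or with the luteolin label, or without gefitinib replicate 2 (adjusted p = 0.0529 to 0.206), and with no filter on dim probes (adjusted p = 0.0655). With the luteolin label the probes gave 0.28 ± 0.24 (adjusted p = 0.428) and 0.24 ± 0.17 (adjusted p = 0.348).

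MARS charges methionine for initiation as well as elongation, and it was the member on which the probes disagreed. The brighter probe, at chr12:56196640-56196699 of hg18, read 2.69 and 2.84 at 0 h, 2.83 and 2.73 with DMSO, 2.81 and 1.93 with the luteolin label, 2.79 and 2.52 with the gefitinib label and 2.38 and 2.84 with the co-administration label. Luteolin replicate 2 was low on this probe, and the SD of 0.62 in that group was the largest of any member in any group. The second probe, at chr12:56191888-56192086, read -0.40 and -0.63 with DMSO, 0.01 and -0.26 with the luteolin label, -0.58 and -0.76 with the gefitinib label and -1 and -0.69 with the co-administration label. Against DMSO the luteolin-labelled change was -0.41 ± 0.29 by the brighter probe (adjusted p = 0.341) and 0.39 ± 0.18 by the other (adjusted p = 0.159), so no direction can be given for MARS. The second probe was, however, 0.54 ± 0.18 higher with the luteolin than with the gefitinib label (adjusted p = 0.0318) and lower with the co-administration than with the luteolin label (-0.72 ± 0.18, adjusted p = 0.0156).

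**Figure D3:**
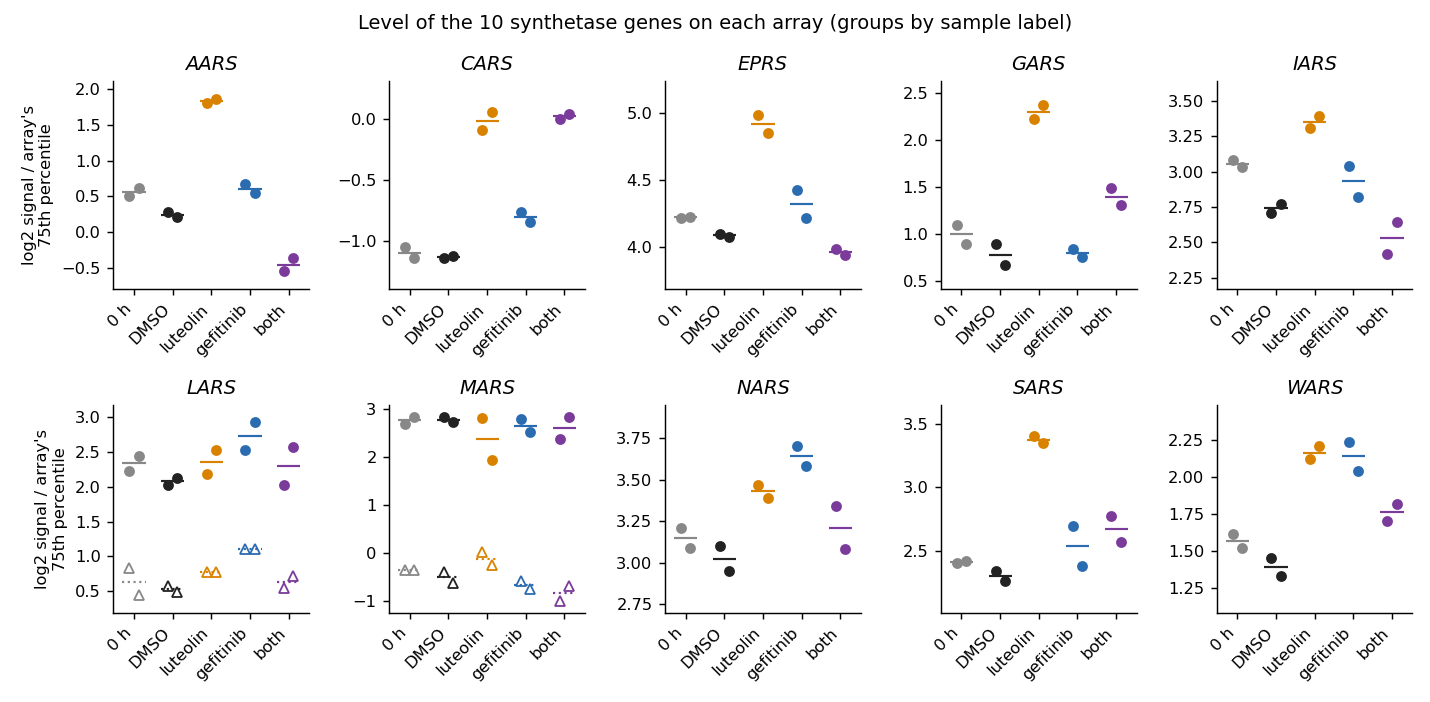
Level of each gene on each array (vertical axis, log2 of the signal over the array's 75th percentile; the axes do not start at 0 and differ between panels), by sample label (both: co-administration-labelled), with 2 arrays and their mean (line) in each group. Circles are the probe that stands for the gene and open triangles the second probe of LARS and MARS; AARS, GARS and SARS are highest on the luteolin-labelled arrays, and the MARS probes part on luteolin replicate 2.

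The arrays lay on 3 slides, and DMSO and luteolin-labelled arrays shared 2 of them. On slide 2 AARS was 1.65 higher with the luteolin label than with DMSO and on slide 3 it was 1.53 higher. GARS was 1.71 and 1.33 higher, CARS 1.17 and 1.05, SARS 1.09 and 1.06, EPRS 0.77 and 0.88, IARS 0.62 and 0.60 and WARS 0.88 and 0.67, on slides 2 and 3 in this order. The 7 rises were thus present on either slide. The fall of AARS with the co-administration label was -0.57 on slide 2 and -0.82 on slide 3, and the rise of CARS was 1.16 and 1.14. Gefitinib-labelled and DMSO arrays shared slide 3 alone, where WARS was 0.79, NARS 0.60 and LARS 0.50 higher.

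Between 0 h and 24 h with DMSO, 0 of the 10 genes were called by limma, 0 had an unadjusted p under 0.05, and 0.0355% of all genes were called in either direction. The differences ran from -0.32 for AARS and IARS to 0.02 for MARS. With 0 h as the reference in place of DMSO, 6 genes were raised and 0 lowered with the luteolin label, where 16.3% of all genes were raised and 14% lowered. They were the 7 genes above without IARS, whose change was 0.29 ± 0.16 (adjusted p = 0.2). NARS and WARS were raised and 0 genes lowered with the gefitinib label, where 31.9% and 22.4% of all genes were. With slide as a block NARS was not called (0.40, adjusted p = 0.0798) and LARS was (0.58, adjusted p = 0.042), and with only the groups compared in the fit NARS was not called either (adjusted p = 0.0601). CARS was raised, and AARS (-1.02 ± 0.15, adjusted p = 0.00232) and IARS (-0.53 ± 0.16, adjusted p = 0.0298) were lowered with the co-administration label, where 24.2% of all genes were raised and 16.5% lowered. The call for IARS was lost with slide as a block (-0.55, adjusted p = 0.0666), with no filter on dim probes (adjusted p = 0.0556) and with only the groups compared in the fit (adjusted p = 0.121). Under quantile normalization 0 members were raised with the gefitinib label against 0 h, and EPRS (-0.57, adjusted p = 0.0201) and IARS (-0.55, adjusted p = 0.0121) were lowered, in place of 0.10 and -0.13. With the co-administration label EPRS was then lowered as well (-0.61, adjusted p = 0.0198, in place of -0.26).

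Set directly against each other, the luteolin-labelled arrays were higher than the gefitinib-labelled arrays for 6 genes (AARS, CARS, EPRS, GARS, IARS and SARS) and lower for 0, where 27.2% of all genes were higher and 33.2% lower. GARS differed by 1.51 ± 0.17 (2.84-fold, adjusted p = 0.000235) and AARS by 1.22 ± 0.15 (2.34-fold, adjusted p = 0.000347). WARS, raised against DMSO under either label, differed by 0.02 ± 0.15 (adjusted p = 0.898). IARS, at 0.42 ± 0.16 (adjusted p = 0.0466), was not called with slide as a block (0.36, adjusted p = 0.144), nor in 7 of the 10 fits that left out an array (adjusted p = 0.0732 to 0.194). The difference in EPRS, 0.59 ± 0.15 (adjusted p = 0.00937), missed the threshold without luteolin replicate 1 (adjusted p = 0.0566) or gefitinib replicate 2 (adjusted p = 0.0508).
The co-administration-labelled arrays were lower than the luteolin-labelled arrays for 5 genes and higher for 0, where 23.5% of all genes were higher and 18.3% lower. AARS changed by -2.29 ± 0.15 on the log2 scale and was 4.88-fold lower (adjusted p = 0.000168), and the changes of EPRS, GARS, IARS and SARS were -0.95, -0.90, -0.82 and -0.71. SARS missed the threshold without luteolin replicate 1 (adjusted p = 0.0555) or replicate 2 (adjusted p = 0.0508). Compared with the gefitinib-labelled arrays, CARS (0.82 ± 0.14, adjusted p = 0.00227) and GARS (0.60 ± 0.17, adjusted p = 0.0183) were higher and AARS (-1.06 ± 0.15, adjusted p = 0.00081) was lower, where 24.5% of all genes were higher and 22.9% lower. Without co-administration replicate 2, 3 genes were lower in place of 1, IARS (-0.50, adjusted p = 0.0357) and LARS (-0.72, adjusted p = 0.042) being added. Without co-administration replicate 1 there were 2, with NARS (-0.56, adjusted p = 0.0292) added. GARS was no longer higher without gefitinib replicate 2 (0.56, adjusted p = 0.0736) or co-administration replicate 1 (0.51, adjusted p = 0.0588). These comparisons reuse the same drug-treated arrays.

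By the labels, the change with both drugs was set against the sum of the changes with either. It was lower than the sum for 7 genes and higher for 0 (the interaction term of the model), where 17.9% of all genes had a positive and 16.3% a negative interaction. In AARS the sum of the single changes was 1.96 and the change with both was -0.70, an interaction of -2.65 ± 0.21 (adjusted p = 0.000224). The other 6 were EPRS (-1.19 ± 0.21), WARS (-1.16 ± 0.22), IARS (-1.01 ± 0.22), SARS (-0.94 ± 0.23), GARS (-0.92 ± 0.24) and NARS (-0.83 ± 0.23). CARS, with a sum of 1.44 and a change of 1.15, had an interaction of -0.29 ± 0.20 that was not called (adjusted p = 0.296). The median interaction was -0.93 over the 10 genes and -0.16 over all genes. Leaving out DMSO replicate 2 left 4 of the 7 called, with GARS, NARS and SARS missing the threshold (adjusted p = 0.0887, 0.106 and 0.0703). GARS was also lost without luteolin replicate 2 (adjusted p = 0.0657), SARS without DMSO replicate 1 (adjusted p = 0.0537), and NARS without DMSO replicate 1, either luteolin-labelled array or gefitinib replicate 1 (adjusted p = 0.0578 to 0.0728) and under quantile normalization (-0.57, adjusted p = 0.111).

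**Figure D4:**
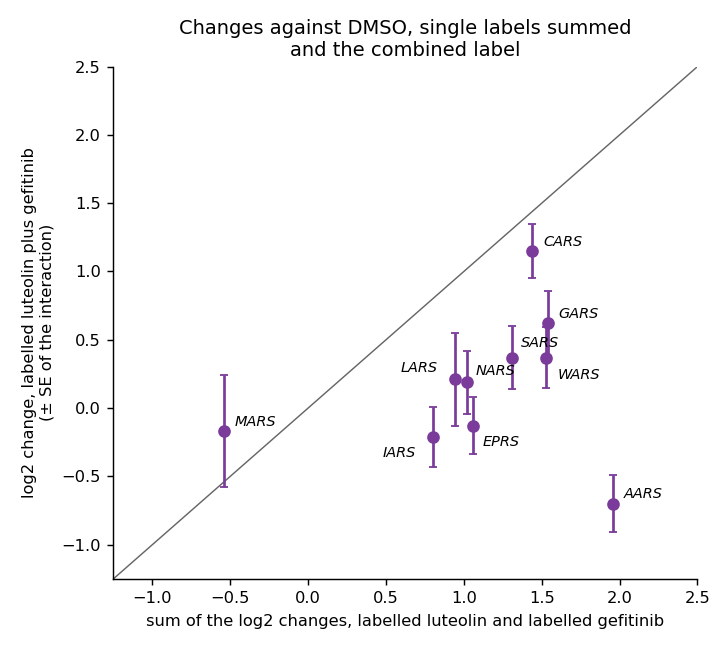
Log2 change against DMSO on the co-administration-labelled arrays (vertical axis, with the standard error of the interaction) plotted against the sum of the luteolin-labelled and gefitinib-labelled changes (horizontal axis), 1 point for each of the 10 genes. The line marks equal values; 9 points lie below it and AARS is the farthest from it, while MARS lies above it.

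If the treatments in the file names are taken in place of the labels, every value against DMSO keeps its size and changes its drug. The 7 genes raised (AARS, CARS, EPRS, GARS, IARS, SARS and WARS) then belong to gefitinib, the 3 (LARS, NARS and WARS) to the combination, and the rise of CARS and GARS with the fall of AARS to luteolin. The interaction, which combines the groups differently, was then negative for 3 genes, CARS (-1.93, adjusted p = 0.000326), GARS (-2.12, adjusted p = 0.000385) and SARS (-1.20, adjusted p = 0.0039), and for AARS it was -0.53 (adjusted p = 0.0745). The median interaction of all genes was -0.03 by this reading. The share of all genes called was not taken for it, so the count of 3 has no background to be set against. GARS and SARS were the members called in the interaction under both readings. Both readings use the same arrays and subtract the luteolin-labelled change against DMSO, so they are not separate tests. Under either reading AARS was the member furthest above DMSO in 1 drug-treated group and the member furthest below it in another, and only the drugs named differ.

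The rest of the tRNA charging machinery was described with lists that, like the 10 genes, were chosen with earlier results known. Counts of these and the following lists stand beside the shares of all genes against DMSO. Those were 14.3% raised and 11.8% lowered with the luteolin label, 32.9% and 22.1% with gefitinib, and 25.1% and 16.2% with co-administration. The other 10 cytosolic synthetases had a median of -0.54 with the luteolin label, with YARS raised (0.99 ± 0.17, adjusted p = 0.0053) and 4 lowered. The lowered genes were both subunits of the phenylalanine enzyme, FARSA (-0.54 ± 0.17) and FARSB (-1.33 ± 0.15), the lysine enzyme KARS (-0.60 ± 0.18) and the aspartate enzyme DARS (-0.61 ± 0.15). Cytosolic synthetases thus did not move together on the luteolin-labelled arrays. With the gefitinib label 4 were raised (DARS, FARSB, VARS and YARS) and 2 lowered (QARS and RARS), and with the co-administration label 2 were raised (TARS and YARS) and DARS was lowered. Under both of these labels the counts lay near the shares of all genes.
YARS, the tyrosine enzyme, was raised under all 3 labels, by 0.79 ± 0.17 with gefitinib and 0.91 ± 0.17 with co-administration. Of the 3 scaffold proteins of the multisynthetase complex, EEF1E1 was lowered with the luteolin label (-0.87 ± 0.16, adjusted p = 0.00617), and AIMP1 (-0.17 ± 0.15) and AIMP2 (-0.13 ± 0.15) were not called.

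The mitochondrial synthetases are products of separate genes that charge tRNA inside the organelle. Of 16, 0 were raised and 1 lowered with the luteolin label (LARS2), 1 raised and 6 lowered with the gefitinib label, and 3 raised and 6 lowered with the co-administration label. The deepest falls were those of TARS2 (-2.40 ± 0.26), YARS2 (-2.17 ± 0.27) and MARS2 (-1.95 ± 0.16) with the gefitinib label. The medians of this list were -0.31, -0.40 and -0.33, where those of the 10 genes were 0.80, 0.28 and 0.20 and those of all genes 0.08, 0.22 and 0.16. Elongation factors, which bring charged tRNA to the ribosome and move it along, had medians of 0.12, 0.86 and 0.75 in the same order of labels. Of 6, 0 were called with the luteolin label, 6 were raised with the gefitinib label (0.81 to 1.19) and 5 with the co-administration label.

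Of 12 genes listed for the amino acid stress response, 10 were raised and 0 lowered with the luteolin label, 2 raised and 2 lowered with the gefitinib label, and 4 raised and 2 lowered with the co-administration label. With the luteolin label ASNS, the asparagine synthetase, rose by 2.20 ± 0.20, the pseudokinase TRIB3 by 3.11 ± 0.32, the cofactor NUPR1 by 3.37 ± 0.29, and the transcription factors DDIT3 and ATF4 by 2.86 ± 0.49 and 1.92 ± 0.31. Not called were EIF2AK4, the kinase that senses uncharged tRNA (0.05 ± 0.17, adjusted p = 0.863), and ATF5 (-0.49 ± 0.17, adjusted p = 0.0676). Only mRNA was measured, not the activity of the kinase. With the co-administration label ATF4 was still raised (1.48 ± 0.31, adjusted p = 0.00812) and so was ASNS (0.99 ± 0.20, adjusted p = 0.00702), while TRIB3 (0.34 ± 0.32, adjusted p = 0.419) and DDIT3 (-0.23 ± 0.49, adjusted p = 0.73) were not called. AARS, whose promoter window holds the stricter core, was lower than DMSO on those same arrays, and CARS, which holds it too, was higher. On the luteolin-labelled arrays AARS, CARS, GARS and IARS were called raised among the 6 with the motif. EPRS, SARS and WARS, with no match in their windows, were called raised as well. NARS (0.40 ± 0.16, adjusted p = 0.105) and MARS, whose probes disagreed, hold the motif and were not called, which does not show that they were unchanged. The part of the motif in these values was not tested. No factor's binding was measured.

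**Figure D5:**
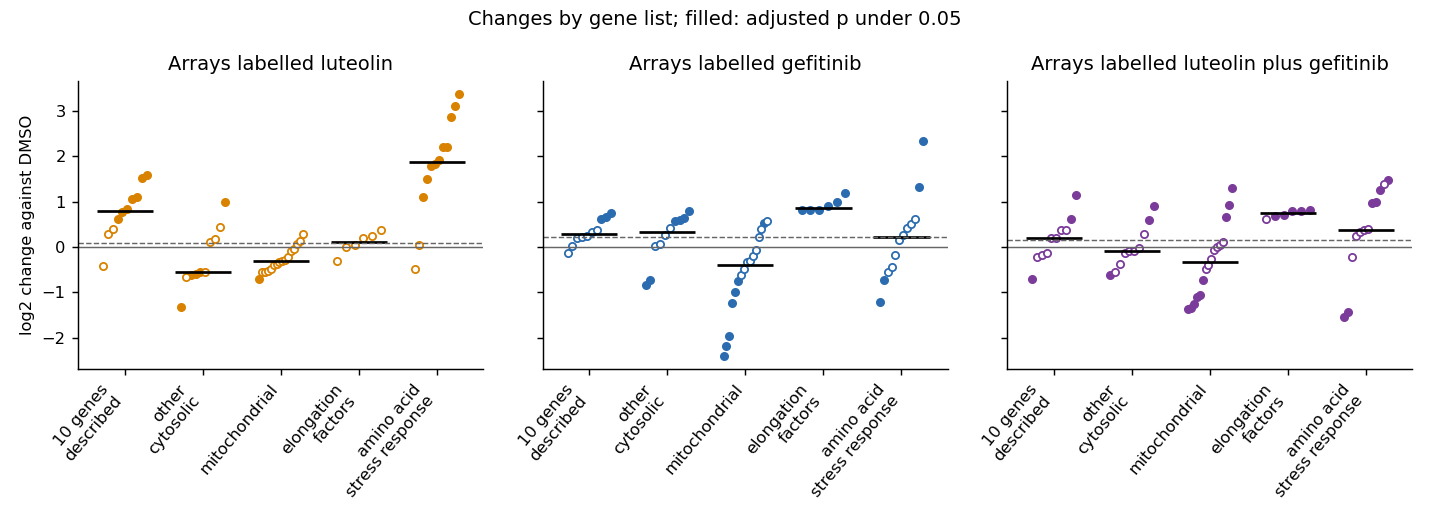
Log2 change against DMSO (vertical axis) of each gene in 5 lists, by sample label; points are genes, filled where the adjusted p is under 0.05, black bars are medians, and the dashed line is the median of all genes. With the luteolin label the 10 genes have a median of 0.80, the other cytosolic synthetases -0.54 and the amino acid stress response 1.88; with the gefitinib label all 6 elongation factors are filled.

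Across the 10 arrays the mean of the 10 genes, each centred on its own mean, was 0.50 and 0.48 with the luteolin label, 0.10 and -0.02 with the gefitinib label, -0.16 and -0.07 with the co-administration label, -0.12 and -0.12 at 0 h and -0.26 and -0.32 with DMSO. The members differed in how closely they followed the mean of the other 9. Pearson's r over the 10 arrays was 0.91 for EPRS and SARS, 0.80 for WARS, 0.75 for GARS, 0.73 for AARS and IARS, 0.53 for NARS, 0.47 for CARS, 0.18 for LARS and -0.50 for MARS. The r of MARS is that of its brighter probe, which was low on luteolin replicate 2. Its second probe, highest with the luteolin label, was not used for r. Of 10961 other named genes well above background on every array, those most like the mean were NAGLU (r = 0.99), a lysosomal enzyme that degrades heparan sulfate, and PDXDC1, AGR2, TFPI and TM9SF2 (r = 0.98 each). AGR2, a disulfide isomerase of the endoplasmic reticulum, rose by 3.36 with the luteolin label, and TFPI, an inhibitor of tissue factor, by 2.22. These values describe 10 arrays that fall into 5 groups and share 1 scaling.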

How the data were processed

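PC-3 mRNA was hybridized to 10 single-color Agilent Whole Human Genome arrays, 2 for each of 5 groups taken from the sample labels. As deposited by the authors, the scanner files hold spot intensities written by Agilent Feature Extraction (10.7.3.1 in the file headers, 10.5.1 in the methods), of which the processed signal, with the background subtracted within the array and no normalization between arrays, was used. For all 45015 spots of each array, the value in the table deposited for the series equalled the scanner signal (relative tolerance 1e-04). Columns of per-sample values left unused numbered 0.

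Analyses were run in R 4.3.3 with limma 3.58.1 and the data.table package (1.17.8). Control and outlier spots (72 to 125 per array) were left out, log2 values of the spots of each probe were averaged, and each array's 75th percentile was subtracted. Kept were the 28776 of 41000 probes that both (2) arrays of some group showed well above background, for 19718 genes. Saturated probes numbered 0. A gene was represented by its kept probe with the highest mean, and the other probes of members are given beside it. Accessions of 23958 probes matched the RefSeq table, and probe coordinates are those of the files (hg18), for which no annotation was used here. A model of the 5 groups was fitted to all 10 arrays (5 residual and 3.36 prior degrees of freedom), with 11 comparisons and Benjamini-Hochberg adjustment over all probes kept. The number of arrays limits the precision. The fit was tested on simulated arrays with changes of known size.

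The members, the gene lists and the tests were chosen with earlier results of these data known. A few list and marker genes are not reported here, and counts and medians of their lists leave them out. Genes outside the members are named where they belong to a list, or as the 5 genes most like the members' mean. Promoter windows came from RefSeq (GRCh38.p14), and YARS, TARS and the like were matched with the digit 1 added. Replicate numbers were not used to pair the arrays in the main fit. Same-numbered arrays of 10 pairs of groups deviated together with r over 0.1 in 6 and between -0.10 and 0.29 in all. A pairing was thus neither shown nor excluded. Number and slide were partly tied, since replicate 1 of each 24 h group lay on slide 3. Alternatives tried were normexp background correction (offset 50), no filter on dim probes, quantile normalization, a filter on signal over background on every array, the deposited table, slide or replicate block, a fit of only the groups compared, the treatments of the file names, a minimum fold of 2, the median over probes, the 1-sample test of the methods, the stricter motif core and leaving out each array.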

Additional observations from a re-analysis of the deposited data

Results flagged for a closer look

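For 7 genes the change on the co-administration-labelled arrays differed from the sum of the changes on the luteolin-labelled and gefitinib-labelled arrays, by the interaction term of the limma model (log2 change against DMSO with both drugs minus that sum, 2 arrays in each group). The difference was -2.65 in AARS (adjusted p = 0.000224), the gene called against DMSO in opposite directions under the luteolin and co-administration labels. It was -1.19 in EPRS (adjusted p = 0.00405), -1.16 in WARS (adjusted p = 0.00503) and -1.01 in IARS (adjusted p = 0.0102). It was -0.94 in SARS (adjusted p = 0.0159), -0.92 in GARS (adjusted p = 0.0186) and -0.83 in NARS (adjusted p = 0.0244). By the treatments of the file names, GARS and SARS among these 7 also passed the threshold. That interaction uses the same arrays and also subtracts the luteolin-labelled change against DMSO, so it is not a separate test.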

How the results depend on the processing

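Of 1330 recomputed log2 changes of members, those by file name and by the methods' test left out, 1261 kept their side of the threshold. Those called among them also kept their direction. A change that was called in neither fit was counted as kept whatever its sign. The series table gave the same counts as the scanner files, and so did the median of a gene's probes. The stricter motif core was found in 5 genes in place of 6. Each count below is of members unless all genes are named, with the count as reported in the text in parentheses. The cause of a difference was not tested unless fewer samples or a stricter call make it.

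Under normexp, 2 (1) were raised with co-administration against 0 h, GARS being added. Under quantile normalization, with gefitinib, 1 (3) was raised against DMSO, and 0 (2) were raised and 2 (0) lowered against 0 h. With no filter on dim probes, or with slide as a block, 1 (2) was lowered with co-administration against 0 h, IARS being lost. With no filter, 2 (3) were raised with gefitinib against DMSO, LARS being lost. With a filter that asked for signal over background on every array, 2 (1) were lowered with co-administration against gefitinib, NARS being added. The replicate block likewise gave 2 (1) in that comparison. Under the block IARS was no longer called between luteolin and gefitinib (adjusted p = 0.0511) and the interaction of LARS was called (adjusted p = 0.0449). Whether the replicate numbers pair the arrays was not settled. With only the groups compared in the fit, with co-administration 1 (2) was lowered against 0 h, 1 (2) raised against DMSO and 0 (2) raised against gefitinib, and with gefitinib 1 (2) was raised against 0 h.

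With a minimum fold of 2, luteolin raised 4 (7) against DMSO and 3 (6) against 0 h, gefitinib 0 (3) and 0 (2), and co-administration raised 1 (2) and lowered 0 (1) against DMSO and lowered 1 (2) against 0 h. Then 2 (6) were higher with luteolin than gefitinib, 1 (5) lower with co-administration than luteolin, 0 (2) higher with co-administration than gefitinib, and 4 (7) had a negative interaction. At that fold, of all 19718 genes, luteolin raised 1423 against DMSO and 1629 against 0 h, and gefitinib 3082 and 2857. Co-administration raised 2386 and lowered 1517 of all genes against DMSO and lowered 1640 against 0 h. Of all genes 3574 were higher with luteolin than gefitinib and 1923 lower with co-administration than luteolin. Higher with co-administration than gefitinib were 3394, and 2422 had a negative interaction. The methods' 1-sample test at an unadjusted 0.05 gave 0 (3) raised with gefitinib against DMSO and 0 (2) against 0 h, 1 (2) raised and 0 (1) lowered with co-administration against DMSO and 0 (2) lowered against 0 h, 3 (6) higher with luteolin than gefitinib, 2 (5) lower with co-administration than luteolin and 1 (2) higher with co-administration than gefitinib. After Benjamini-Hochberg adjustment it gave 0 in each of the 10 comparisons it was run on, which leave out the interaction.

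By the file names, luteolin raised 2 (7) and lowered 1 (0) against DMSO, and raised 1 (6) and lowered 2 (0) against 0 h. Gefitinib then raised 7 (3) against DMSO and 6 (2) against 0 h, and co-administration lowered 0 (1) against DMSO, raised 2 (1) against 0 h and lowered 0 (2). Between the drugs, 0 (6) were higher and 5 (0) lower with luteolin than gefitinib, 1 (0) higher and 2 (5) lower with co-administration than luteolin, and 0 (2) higher and 6 (1) lower with co-administration than gefitinib, and 3 (7) had a negative interaction. Some changes that were called under either reading turned direction by file name, and those called under neither are left out here. Against DMSO the changes that turned were those of AARS (-0.70), EPRS (-0.13) and IARS (-0.21) with luteolin and of AARS (0.37) with co-administration. They were those of AARS (-2.29), EPRS (-0.95), GARS (-0.90), IARS (-0.82) and SARS (-0.71) between luteolin and gefitinib, and of AARS (1.06), CARS (-0.82), EPRS (0.36) and IARS (0.40) between co-administration and luteolin. They were also those of CARS (-0.78), GARS (-1.51) and SARS (-0.84) between co-administration and gefitinib, and the interaction of NARS (0.03).

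When each array was left out in turn, a lone array being taken to vary as arrays elsewhere do, luteolin raised 4 to 7 members against DMSO and 4 to 6 against 0 h. Gefitinib raised 1 to 4 against DMSO, with the low of 1 without DMSO replicate 2, and 0 to 2 against 0 h. Co-administration raised 1 to 2 and lowered 0 to 1 against DMSO, the low values without either DMSO array, and raised 1 and lowered 1 to 2 against 0 h. Between the drugs, 4 to 6 were higher with luteolin than gefitinib, 4 to 5 lower with co-administration than luteolin, and 1 to 2 higher and 1 to 3 lower with co-administration than gefitinib. The negative interactions numbered 4 to 8.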
